A study of Homo sapiens with 8 samples.

Results

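Transcripts of 10 genes of activin and transforming growth factor beta (TGF-beta) signalling were followed in CAKI1, a line of human renal carcinoma cells long established in culture, after stimulation with iron-loaded lipocalin-2. The genes were taken by their symbols and comprised INHBE, INHBA and INHBB, which encode activin subunits, GDF15, TGFB1, TGFB2 and TGFB3, which encode secreted ligands, TGFBR1 and TGFBR2, which encode the receptors of TGF-beta, and FST, which encodes the activin-binding protein follistatin. Of these 10 genes, 8 were measured among 16782 genes in total, and all 8 passed the filter on low values together with 15593 genes. INHBB and FST were not analysed here. In the study, cells were kept without serum for 24 h before stimulation. The treated group received 5 µg/mL of holo Lcn-2 (hLcn-2, lipocalin-2 with its iron load) for 24 h, and the control group stayed unstimulated. Each group held 4 samples, numbered 1 to 4, and both groups were the same cell line. A single cell line in culture holds no stroma or immune cells, so signals that such cells would send or receive are not part of this model. Whether the numbers stand for separate cultures was not given in the sources used here, so that p-values measure the spread between these samples.

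The libraries were made with a kit that reads the 3′ end of each transcript, and each molecule carried an identifier of its own (UMI), by which PCR copies were collapsed. Values are normalized counts (CPM), that is reads per 1000000 of the library, whose size was adjusted by the authors. Libraries held between 1501563 reads in control 4 and 13953090 in control 1, and 1 read was accordingly worth between 0.0704 and 0.658 CPM. Of the 9 marker genes listed for a renal carcinoma line, 8 were measured, among them PAX8 with 226 CPM in controls and 223 CPM after hLcn-2 and VIM with 1664 and 1874 CPM. Of the markers listed for leukocytes, fibroblasts and proximal tubule, CD14, PDGFRB and CUBN were measured, each with group means under 2 CPM, and those of endothelium were not analysed here. Among same-numbered pairs, the samples of number 3 stood apart by the share of reads from mitochondrial ribosomal RNA, which was 6.71% and 7.50% there and between 3.61% and 4.66% in the other 6 samples.

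Ligands of this family are secreted as dimers, bind a pair of type II and type I receptor kinases and pass their signal to SMAD proteins, which enter the nucleus and act on transcription. INHBA and INHBE encode the subunits of activin A and activin E, whereas TGFB1, TGFB2 and TGFB3 encode ligands that are secreted in a latent form and released from it outside the cell. GDF15, a distant member of the family, signals through GFRAL, a receptor of the hindbrain, and is known as a circulating marker of cell stress. INHBE and GDF15 are both known to be induced in the integrated stress response, in which the transcription factor ATF4 acts together with C/EBP proteins.

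Because of that link, the promoter sequences of RefSeq (GRCh38.p14, 250 bases before to 50 bases after each start) were searched on both strands for the C/EBP-ATF motif TGATGNAA and for the SMAD palindrome GTCTAGAC. Promoters were available for 9 of the 10 genes, with 18 starts in all. INHBE was the gene without an entry. None of the 18 promoters held either motif. Over all 35116 promoters, 3.62% held TGATGNAA and 0.202% held GTCTAGAC, so that a match was rare in promoters of this length. Of 15 genes listed for the integrated stress response, 14 had promoters, with 23 starts in all. TGATGNAA was found there in 1 promoter each of ASNS, CHAC1, ATF3 and FGF21. The first sequence shows the 250 bases before the start of INHBA (chr7:41703091-41703340, minus strand, inside an intron of longer transcripts of that gene), as the activin subunit gene with an entry. The others show the 30 bases around the motif of ASNS (chr7:97872458-97872487, minus strand) and of CHAC1 (chr15:40953251-40953280, plus strand), the stress response genes with a motif whose transcripts differed most. Capitals mark TGATGNAA, which stands in reverse in CHAC1, and INHBA has none.
INHBA: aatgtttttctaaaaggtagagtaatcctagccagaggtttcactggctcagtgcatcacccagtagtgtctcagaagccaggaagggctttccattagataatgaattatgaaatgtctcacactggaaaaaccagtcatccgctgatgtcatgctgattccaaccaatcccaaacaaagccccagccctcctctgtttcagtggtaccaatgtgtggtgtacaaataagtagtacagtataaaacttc
ASNS: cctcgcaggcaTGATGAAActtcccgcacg
CHAC1: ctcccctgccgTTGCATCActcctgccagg

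INHBE, which encodes the activin beta E subunit and is known mainly as a product of liver, was the gene of the family that differed between the groups. Controls 1 to 4 had 11.2, 15.3, 15.3 and 10.5 CPM, and the hLcn-2 samples 1 to 4 had 19.9, 39.7, 22.2 and 31.1 CPM. All treated samples were above all controls. In RNA from whole cultures, a change in the number of cells that express a gene and one in the RNA per cell cannot be told apart. The mean was 13.1 ± 2.58 CPM (SD, n = 4) in controls and 28.2 ± 9.07 CPM (SD, n = 4) after hLcn-2, a ratio of 2.16. Groups without overlap and with hLcn-2 higher were found for 0.891% of genes tested, and those with hLcn-2 lower for 0.988%. The two-sided exact permutation test gave p = 0.0286, the smallest value that 4 samples against 4 allow. In the same-numbered pairs, INHBE was higher after hLcn-2 by 0.77, 1.32, 0.51 and 1.48 on the log2 scale of CPM + 1. A difference in this direction in all 4 pairs was found for 9.93% of genes, and one in the other direction for 10.9%.

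Across all genes, limma without the pairing gave INHBE a log2 fold change of 1.02 (SE 0.24, 95% interval 0.50 to 1.54). Its unadjusted p of 0.0011 became an adjusted p of 1 over 15593 genes, of which 0.0% were called at an adjusted p under 0.05. At an unadjusted p under 0.05 and without the block, limma counted 355 of these 15593 genes, edgeR 324 and DESeq2 284. INHBE was the only one among the 8 genes of the family in each of them. Deviations from the group means were shared by same-numbered samples. With the number as a block in the same model, the SE of INHBE fell to 0.17 and its adjusted p became 0.032, so that INHBE rose after hLcn-2 by this test. Called in this fit were 0.218% of genes as higher and 0.0641% as lower. edgeR with the block gave INHBE an adjusted p of 0.0020 and called 1.12% of genes as higher and 0.372% as lower. The call was not held by every pair: the log2 fold change with the block was 0.92 without pair 2 (adjusted p = 0.20), 1.19 without pair 3 (adjusted p = 0.068), 0.87 without pair 4 (adjusted p = 0.054) and 1.10 without pair 1 (adjusted p = 0.028). INHBE also belongs to the genes that the study listed from samples of this experiment, so its direction is not independent evidence. The study's legend gives fewer samples per group than were analysed here and does not name them.

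The depth behind INHBE was between 16 reads in control 4 and 282 reads in hLcn-2 sample 2. Counting error alone gave a 95% Poisson interval of 6.02 to 17.1 CPM for control 4, which overlaps those of the other controls. For its pair, hLcn-2 sample 4, the interval was 26.2 to 36.6 CPM and lay above it. The gene lies at chr12:57452323-57459280 on the plus strand (GRCh38, GENCODE 44), and its last exon (chr12:57456094-57458025) holds a 3′ untranslated region of 1180 bases, where reads of this kit fall. An exon of a long non-coding RNA on the opposite strand, ENSG00000287200, overlaps this last exon, and whether reads were counted by strand was not given in the sources used here.

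**Figure D1:**
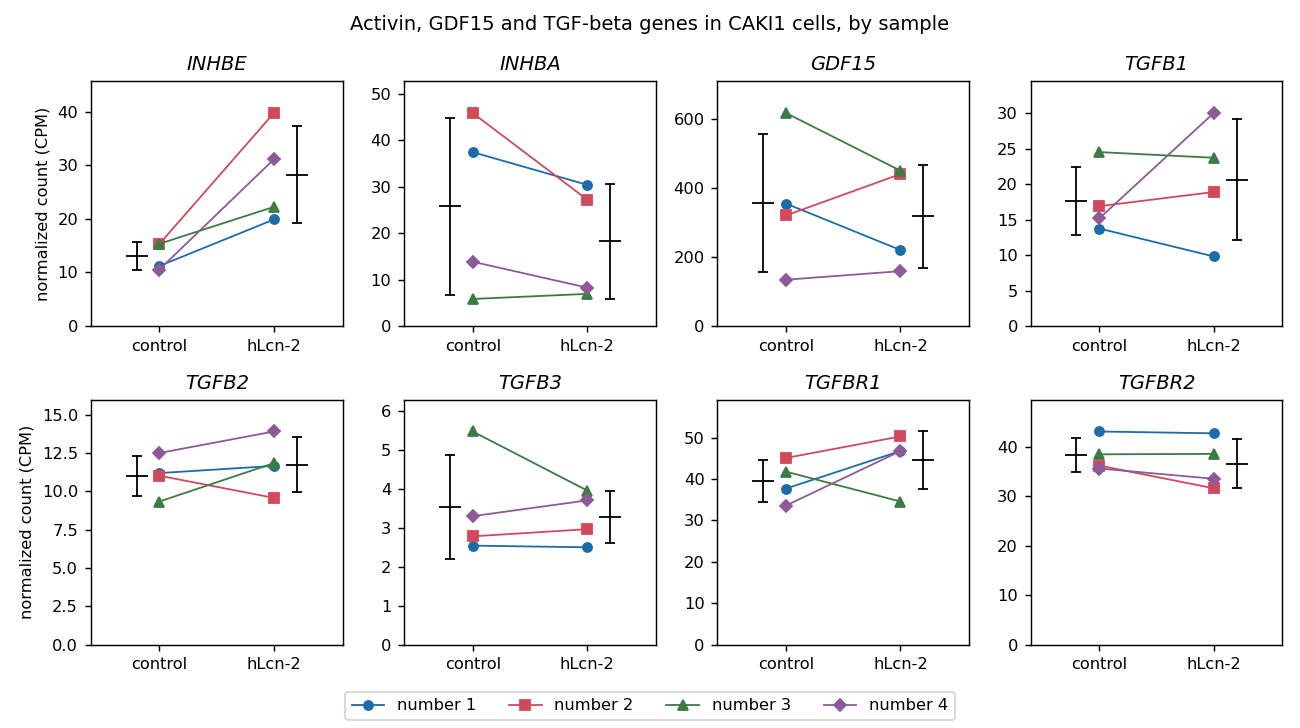
Normalized count (CPM, axis from 0) of each of the 8 genes in control and hLcn-2 samples. Lines join samples with the same number, and black bars give the mean and SD of 4 samples. In INHBE all 4 lines go up from controls of at most 15.3 CPM, while in the other 7 genes the groups overlap.

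INHBA encodes the subunit of activin A, the best known activin. Its controls 1 to 4 had 37.4, 45.8, 5.82 and 13.8 CPM and its hLcn-2 samples 30.4, 27.2, 6.91 and 8.26 CPM. In both groups numbers 1 and 2 were high and numbers 3 and 4 low, so that the groups overlapped widely and the spread followed the number. The means were 25.7 ± 19.0 CPM in controls and 18.2 ± 12.3 CPM after hLcn-2 (SD, n = 4). The highest control was 7.88 times the lowest. Without the block the log2 fold change was -0.37 with an interval of -1.70 to 0.95, and the two-sided exact permutation test gave p = 0.60. With the block the interval narrowed to between -0.73 and -0.0098, at an unadjusted p of 0.045 in limma and an adjusted p of 0.40. In that fit, 1900 of the 15593 genes tested had an unadjusted p under 0.05. edgeR with the block gave an adjusted p of 0.13. INHBA was lower after hLcn-2 in pairs 1, 2 and 4 and higher in pair 3, whose samples held 33 and 14 reads of it.

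Since both subunit genes were read at the 3′ end, with no division by length, their CPM can be set side by side as levels. INHBE made up 23.0%, 25.0%, 72.5% and 43.2% of the summed INHBE and INHBA counts in controls 1 to 4. After hLcn-2 it made up 39.5%, 59.4%, 76.3% and 79.0%. The share was higher in 4 of 4 pairs, by between a few points in number 3 and more than 30 points in numbers 2 and 4. The groups overlapped in this share because control 3, with little INHBA, was already high. INHBB, INHBC and INHA, which encode other activin or inhibin subunits, were not analysed here, so the share covers INHBE and INHBA alone.

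GDF15 had by far the highest level of the family. Controls had 355, 321, 618 and 134 CPM and hLcn-2 samples 220, 441, 451 and 159 CPM. The highest and the lowest sample were both controls, numbers 3 and 4. The means were 357 ± 199 CPM and 318 ± 150 CPM (SD, n = 4), and the two-sided exact permutation test gave p = 0.91. On the log2 scale, GDF15 was higher after hLcn-2 by 0.46 and 0.24 in pairs 2 and 4, and the differences in pairs 1 and 3 were -0.69 and -0.45. The log2 fold change was -0.11, with a 95% interval of -1.05 to 0.83 without the block and -0.43 to 0.21 with it (adjusted p = 0.82 in limma). With 204 to 5044 reads per sample, counting error was small beside this spread. The share of mitochondrial ribosomal RNA was high in control 3, where GDF15 was highest. The part of that share in the level of GDF15 was not tested. INHBE and GDF15, both known as stress response products, thus gave different values in the same samples: INHBE was higher in 4 of 4 pairs and GDF15 in 2 of 4.

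Among the 3 TGF-beta ligand genes, TGFB1, which encodes the isoform studied most, had 13.7, 16.9, 24.5 and 15.1 CPM in controls 1 to 4. After hLcn-2 it had 9.80, 18.9, 23.7 and 30.0 CPM. The lowest and the highest of the 8 samples were both treated ones. The means were 17.6 ± 4.80 CPM and 20.6 ± 8.52 CPM (SD, n = 4), and the pairs differed by -0.45, 0.15, -0.046 and 0.94 on the log2 scale, in both directions. The log2 fold change of 0.15 had an interval of -0.26 to 0.56 with the block (adjusted p = 0.81 in limma), and the exact permutation test gave p = 0.71. Without hLcn-2 sample 4 the log2 fold change, taken without the block, was -0.058. Exons of HNRNPUL1, on the opposite strand and at 136 CPM, overlap an exon of TGFB1 outside its last exon.

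TGFB2 encodes an isoform known from epithelium and development, and its level hardly varied. Controls had 11.2, 11.0, 9.34 and 12.5 CPM and hLcn-2 samples 11.7, 9.58, 11.8 and 13.9 CPM. The means were 11.0 ± 1.30 CPM and 11.8 ± 1.77 CPM (SD, n = 4). The highest of all 8 samples was 1.49 times the lowest. Its log2 fold change was 0.081, with an interval of -0.26 to 0.42 with the block (adjusted p = 0.88 in limma) and an exact permutation p of 0.51. A transcript annotated on the same strand, TGFB2-OT1, shares the last exon, and reads of the 2 cannot be told apart.

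TGFB3 was the gene of lowest level, with 2.54, 2.78, 5.46 and 3.29 CPM in controls and 2.49, 2.96, 3.95 and 3.70 CPM after hLcn-2. These values rest on 5 to 37 reads per sample. In control 4, the library of lowest depth, the 5 reads allow 1.07 to 7.68 CPM (95% Poisson interval), which spans all other samples of TGFB3. The log2 fold change of -0.051 had an interval of -0.51 to 0.41 with the block (adjusted p = 0.95 in limma). As shares of the summed 3 ligand genes, TGFB1 took 54.1% ± 6.11 in controls and 56.0% ± 10.2 after hLcn-2, TGFB2 35.2% ± 7.95 and 34.6% ± 9.41, and TGFB3 10.7% ± 2.25 and 9.40% ± 1.16 (SD, n = 4). Each share was higher after hLcn-2 in 2 of 4 pairs.

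The receptor genes were the steadiest of the family together with TGFB2. TGFBR1, which encodes the type I receptor kinase that phosphorylates SMAD2 and SMAD3, had 37.7, 45.1, 41.8 and 33.6 CPM in controls and 46.8, 50.3, 34.6 and 46.8 CPM after hLcn-2. It was higher in pairs 1, 2 and 4 and lower in pair 3. The means were 39.5 ± 4.99 CPM and 44.6 ± 6.89 CPM (SD, n = 4), with a log2 fold change of 0.16 (interval -0.10 to 0.43 and adjusted p = 0.65 with the block in limma; exact permutation p = 0.26). TGFBR2 encodes the type II receptor that binds the ligand first. Its values were 43.0, 36.2, 38.4 and 35.6 CPM in controls and 42.7, 31.6, 38.5 and 33.5 CPM after hLcn-2. Same-numbered samples lay close together, within 0.20 on the log2 scale in all 4 pairs. The log2 fold change was -0.071, with an interval of -0.29 to 0.15 (adjusted p = 0.84 with the block in limma) and an exact permutation p of 0.54. This was the narrowest interval among the 8 genes.

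**Figure D2:**
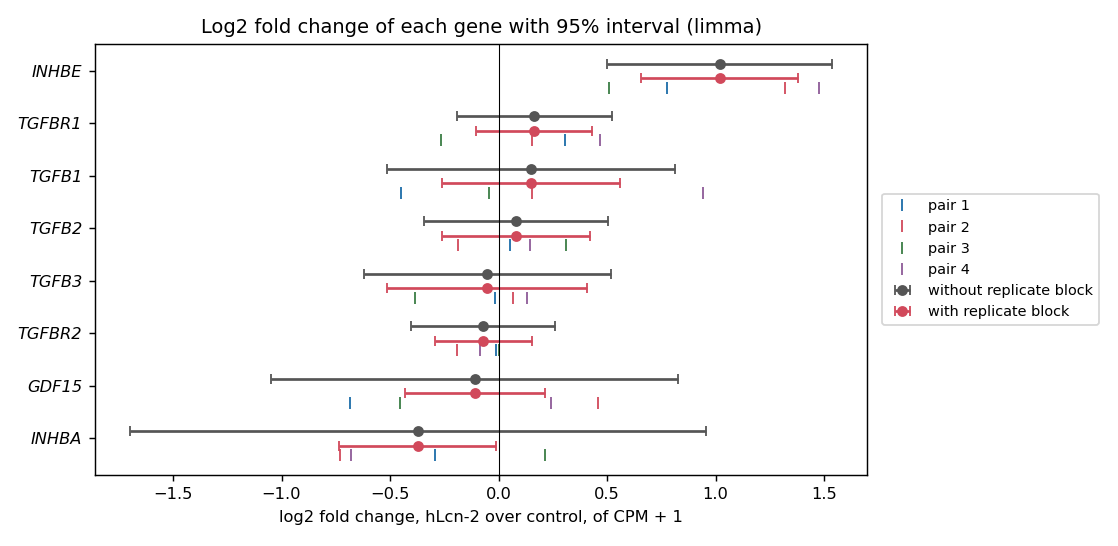
Log2 fold change (hLcn-2 over control, of CPM + 1) of the 8 genes with 95% intervals from limma, without the replicate block in grey and with it in red, and the difference in each pair as ticks. The intervals of INHBE lie above 0 in both fits, from 0.50 to 1.54 without the block. For INHBA the interval shrinks most when the number is taken into account.

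In order of the mean CPM over all 8 samples, GDF15 (337 CPM) was followed by TGFBR1 (42.1 CPM), TGFBR2 (37.4 CPM), INHBA (22.0 CPM), INHBE (20.7 CPM), TGFB1 (19.1 CPM), TGFB2 (11.4 CPM) and TGFB3 (3.40 CPM). GDF15 was above TGFBR1 and TGFB2 above TGFB3 in 8 of 8 samples, without overlap. The other neighbours overlapped: TGFBR1 was above TGFBR2 in 5 of 8 samples, TGFBR2 above INHBA in 7, INHBA above INHBE in 4, INHBE above TGFB1 in 3 and TGFB1 above TGFB2 in 7. INHBA and INHBE thus had similar means, but INHBA varied mainly with the sample number and INHBE mainly with the group.

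To see whether other genes of the pathway differed, 79 further genes were listed by role, of which 62 were measured and 60 tested. With the block, limma called 0 of the 60 as higher and 1 as lower, and edgeR called 2 as higher and 2 as lower. Over all genes tested, limma with the block called 0.218% as higher and 0.0641% as lower. For edgeR with the block these shares were 1.12% and 0.372%. Without the block none was called, and 1 of the 60 had an unadjusted p under 0.05 in limma. The median log2 fold change over the 60 genes was 0.022, beside 0.00083 over all genes tested. In 4 of 4 pairs 5 genes were higher and 8 lower. Over all genes 9.93% were higher and 10.9% lower in all pairs.

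Among 10 receptor and co-receptor genes tested, none was called in either direction by limma or edgeR with the block. ACVR2A and ACVR2B, the type II receptors of activin, had means of 11.9 and 8.10 CPM in controls and 10.9 and 8.13 CPM after hLcn-2. ACVR2A was lower after hLcn-2 than in controls in each of the 4 pairs (log2 fold change -0.12, limma with the block, adjusted p = 0.80). ACVR1B, the type I partner of activin, had 30.0 and 28.6 CPM. Those of highest mean were BMPR2, a type II receptor for bone morphogenetic proteins, with 147 and 152 CPM, and ACVR1 with 34.9 and 36.0 CPM. GFRAL, the receptor of GDF15, was not analysed here. Of the other ligands, 5 genes were tested and none was called, including GDF11 (18.4 and 15.5 CPM) and BMP1, a protease despite its name (25.0 and 26.2 CPM).

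The 7 genes of SMADs and their anchor were all tested and none was called. SMAD5 and SMAD3 had the highest means, with 243 and 142 CPM in controls and 241 and 140 CPM after hLcn-2. Of 13 inhibitors of the pathway, VASN was called as higher by edgeR with the block (adjusted p = 0.011) and missed the threshold in limma with the block (adjusted p = 0.056). VASN encodes vasorin, a membrane protein that binds TGF-beta. Its controls had 12.6, 13.1, 28.0 and 15.8 CPM and its hLcn-2 samples 18.8, 19.6, 46.9 and 27.0 CPM, higher in every pair but with overlapping groups. VASN is also among the genes that the study listed. SMAD7, which is induced by SMAD signalling and blocks it, had 10.2 ± 1.50 CPM and 9.73 ± 1.69 CPM (SD, n = 4). FSTL3, which binds activin as follistatin does, had 10.6 ± 1.20 CPM and 11.5 ± 1.48 CPM. FSTL1 and SKIL, of highest mean in this group, differed by less than 0.03 on the log2 scale.

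Of 10 genes tested for the latency and activation of TGF-beta, 1 was called as lower by limma with the block. This was ITGB8, an integrin subunit that binds and activates latent TGF-beta together with the subunit encoded by ITGAV (log2 fold change -0.43, limma with the block, adjusted p = 0.048). Its controls had 137, 106, 236 and 159 CPM and its hLcn-2 samples 107, 76.9, 186 and 106 CPM. Every pair was lower, although the groups overlapped. ITGB6, which forms the other integrin known for this role, had 35.0 ± 20.7 CPM and 20.5 ± 9.65 CPM (SD, n = 4), was lower in 4 of 4 pairs and differed by -0.69 on the log2 scale (with the block, adjusted p = 0.073 in limma and 0.033 in edgeR). edgeR with the block called both. ITGAV, their common partner, had 249 and 247 CPM, and the median over the 10 genes was -0.023, with 4 genes above 0 and 6 below. LTBP2, an extracellular matrix protein named for latent TGF-beta binding, was higher in each of the 4 pairs (11.5 and 14.2 CPM) and was not called.

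Of 15 genes known as targets of TGF-beta or SMADs, limma with the block called none. edgeR with the block called 1 of them as higher and 0 as lower, beside 1.12% and 0.372% of all genes tested. ID2, a target of SMADs that inhibits basic helix-loop-helix factors, was the only gene of the 60 whose groups did not overlap, with 15.3 to 17.5 CPM after hLcn-2 below 18.4 to 30.9 CPM in controls (adjusted p = 0.25 in limma with the block). Over all genes tested, 0.988% had groups without overlap and with hLcn-2 lower, and 0.891% with hLcn-2 higher, so 1 such gene among 60 is near the general share. CDKN2B, a cell cycle inhibitor, had 21.5 and 28.5 CPM, with each of the 4 pairs higher after hLcn-2 (limma with the block, adjusted p = 0.20). TGFBI, of highest mean, had 1146 ± 387 CPM in controls and 1206 ± 416 CPM after hLcn-2. The target genes therefore did not move in 1 direction: 10 had a log2 fold change above 0 and 5 below, with a median of 0.073.

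**Figure D3:**
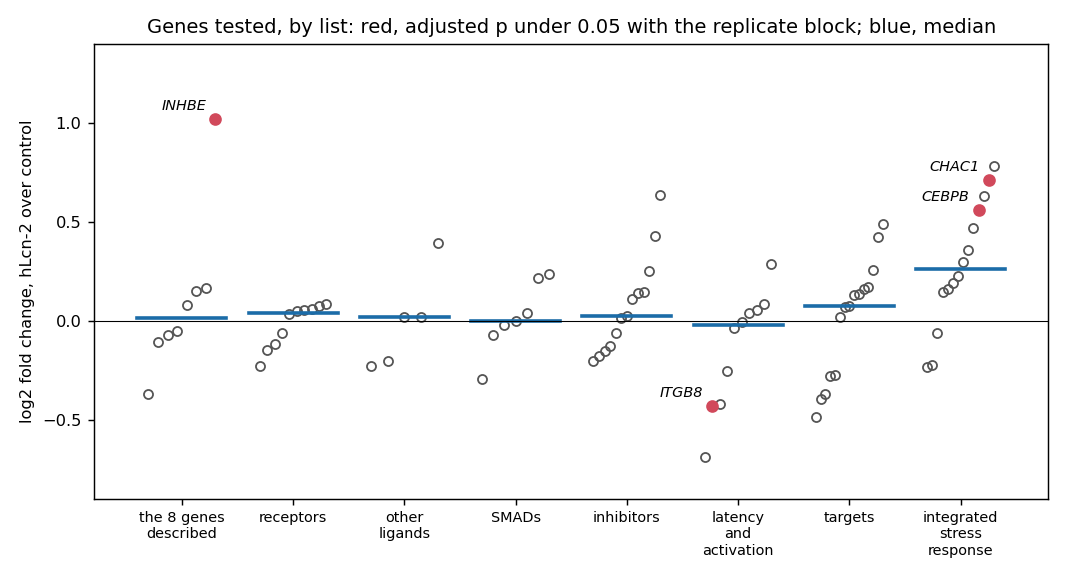
Log2 fold change (hLcn-2 over control) of each tested gene, by list and in rising order within a list. Red points had an adjusted p under 0.05 in limma with the replicate block, and blue lines give medians. Of the genes shown, INHBE, CHAC1 and CEBPB were called as higher and ITGB8 as lower, and the stress response list has the highest median, at 0.26.

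Beside INHBE and GDF15, 15 genes known as targets or partners of ATF4 were listed, of which 14 were tested. With the block, limma called 2 of them as higher, CHAC1 and CEBPB, and edgeR called 4, adding SESN2 and ASNS, with 0 lower in both. The shares of all genes tested called as higher were 0.218% in limma and 1.12% in edgeR, both with the block. In 4 of 4 pairs 6 of the 14 were higher and 0 lower, beside 9.93% and 10.9% of all genes. The median log2 fold change was 0.26, with 11 genes above 0 and 3 below. CHAC1, SESN2 and CEBPB are in the list the study drew from samples of this experiment, so their direction is not independent evidence. CHAC1, an enzyme that degrades glutathione, had 38.1 ± 11.7 CPM in controls and 62.4 ± 17.3 CPM after hLcn-2 (SD, n = 4; log2 fold change 0.71, adjusted p = 0.021 in limma with the block). CEBPB, a partner of ATF4, had 210 ± 34.1 CPM and 309 ± 37.4 CPM (log2 fold change 0.56, adjusted p = 0.032).

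ASNS, which encodes asparagine synthetase and has the motif shown above, had 82.1, 87.4, 108 and 68.5 CPM in controls and 135, 170, 113 and 184 CPM after hLcn-2. Its groups did not overlap, as in INHBE, and its difference was likewise smallest in pair 3 and largest in pair 4 (adjusted p = 0.057 in limma with the block). ATF3, with a log2 fold change of -0.063, has the motif as well, whereas CEBPB and SESN2 had none in the promoters searched. SESN2, a sestrin, had 93.2 and 150 CPM (adjusted p = 0.082 in limma and 0.015 in edgeR, with the block). ATF4 itself had 350 and 405 CPM, which is 0.19 on the log2 scale (limma with the block, adjusted p = 0.41), and STC2 had 330 and 416 CPM. Lowest in the list were PPP1R15A, NUPR1 and ATF3, with log2 fold changes of -0.23, -0.22 and -0.063, none of them called. GDF15, at -0.11, thus stood nearer to these than to INHBE, at 1.02.

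**Figure D4:**
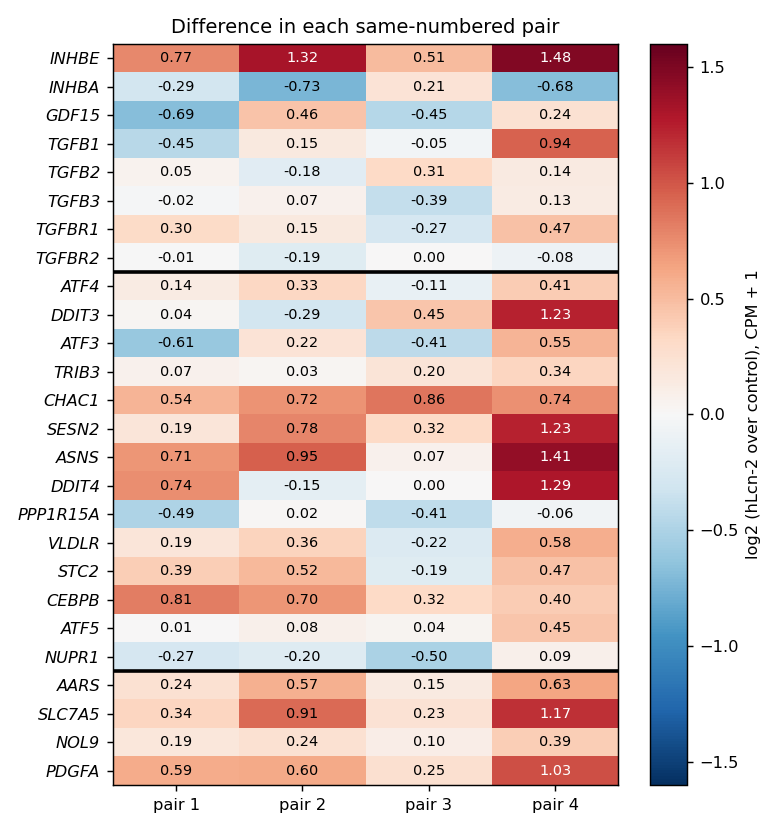
Difference of log2(CPM + 1) between hLcn-2 and control in each same-numbered pair, for the 8 genes of the family (top), the stress response genes (middle) and further genes whose values resembled those of INHBE (bottom). Red is higher and blue lower after hLcn-2. INHBE is red in all 4 pairs, from 0.51 to 1.48, GDF15 is red in 2 pairs and blue in 2.

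Over the 8 samples, the genes whose log2 values were most like those of INHBE among 9005 others with a mean of at least 10 CPM were AARS (Pearson r = 0.984), SLC7A5 (0.983), NOL9 (0.969), ASNS (0.941) and PDGFA (0.940). These r values describe 8 points that share the group difference, the sample numbers and the library depth. AARS encodes alanyl-tRNA synthetase and SLC7A5 a transporter of large neutral amino acids, whereas PDGFA encodes a growth factor. All 5 were higher after hLcn-2 in 4 of 4 pairs, and AARS, SLC7A5 and NOL9 showed the order of INHBE among treated samples. SLC7A5 had 111, 177, 119 and 161 CPM after hLcn-2 against 87.5, 93.5, 101 and 71.1 CPM in controls. The 5 genes most like GDF15 were others: LYST (0.971), SLC30A1 (0.969), ATF6 (0.967), ANTXR1 (0.966) and CNST (0.962). They had log2 fold changes between -0.12 and 0.043. All 5 were highest in number 3 and lowest in number 4 among controls, as GDF15 was. SLC30A1 encodes a zinc exporter and ATF6 a sensor of stress in the endoplasmic reticulum.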

How the data were processed

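RNA of CAKI1 cells from 4 control and 4 hLcn-2 samples was sequenced by the authors as single-end QuantSeq 3′ libraries with UMI (75 cycles). Per the study's methods and the submitters' processing notes, UMI were moved to the read names, reads were aligned to GRCh38 with STAR, collapsed by UMI and counted with HTSeq, and genes without counts were removed. The deposited values are a normalized signal, the CPM of a library size adjusted by the authors. All 134256 of 134256 values were whole reads within 0.01 reads when divided by the worth of 1 read, so that reads were recovered for count tests. A decimal comma in 1 value of TXNIP was taken as a point. The main test stayed limma, as planned for values that are not counts.

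Limma 3.58.1 (R 4.3.3, with intensity trend, two-sided) was run on log2(CPM + 1), without a block, over 15593 genes that reached 1 CPM in 2 samples or more, with Benjamini-Hochberg adjustment. Fold changes are on this scale, which understates the change of low genes. Single genes were tested by exact permutation over the 70 regroupings of 4 samples against 4, which does not use the pairing by number. The sign of 4 pairs cannot go below an exact p of 0.125. The pairing comes from the numbers in the sample titles and was checked on the deviations from the group means, which correlated across genes at 0.31 to 0.61 within the 4 pairs. The number was therefore used as a block in a second fit. Alternatives were other pseudocounts, filters and scalings, no trend, count tests on the recovered reads (DESeq2 1.42.0, edgeR 4.0.16) and leaving out samples or pairs. Models were tested on simulated data. Read intervals are exact Poisson intervals and cover counting error only.

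The genes and lists were chosen with earlier results of these data known. Named are the 8 genes of the family, the nearest partners of activin, genes of the lists that were called, the 3 largest and 3 smallest log2 fold changes and the 2 highest means per list, and the 5 genes most like INHBE and GDF15. LTBP2 and THBS1, outside these rules, are named for their direction in 4 of 4 pairs. Gene symbols are those of the deposited table or GENCODE 44. Adjusted p in the text are limma's unless edgeR is named. One gene of the target list is counted in its list but not reported here by name.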

Additional observations from a re-analysis of the deposited data

How the results depend on the processing

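Without the block no gene was called under any alternative. INHBE kept its direction under all 28 alternatives and passed the threshold in 6 of them, each with the replicate block: the replicate block alone (log2 fold change 1.02), with pseudocount 5 (0.85) or a mean of at least 10 CPM (1.02), edgeR (1.07), DESeq2 (1.05) and without pair 1 (1.10), where the number of genes of the family called was 1. It missed it with the block at pseudocount 0.1 (1.07, adjusted p = 0.061), with no intensity trend (adjusted p = 0.44) and without pair 2, 3 or 4. Leaving out single samples gave 0.84 to 1.16. In this pairing by number, the number of genes called was 44 with the block, 8 with pseudocount 0.1, 45 with pseudocount 5, 85 with a mean of at least 10 CPM, 233 in edgeR, 173 in DESeq2, 14 without pair 1, 3 without pair 2, 58 without pair 4 and 0 without pair 3 or without the trend. The block changed no other call among the 8 genes. Direction was not stable for 4 genes: leaving out single samples gave -0.51 to 0.22 for GDF15, -0.90 to 0.022 for INHBA, -0.058 to 0.45 for TGFB1 and -0.15 to 0.14 for TGFB3. With the block, GDF15 was 0.082 without pair 1 and 0.0049 without pair 3, TGFB1 was -0.11 without pair 4 and TGFB3 was 0.060 without pair 3. The cause was not tested. TGFB3 could not be tested with a mean of at least 10 CPM. TGFB2, TGFBR1 and TGFBR2 kept their direction under all 28 alternatives.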

Other observations

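TGFB2-AS1, an antisense RNA whose exons overlap TGFB2 outside its last exon, was looked up after the values of TGFB2 were seen. It had 13.9 ± 3.54 CPM in controls and 16.0 ± 5.56 CPM after hLcn-2 (SD, n = 4), a level like that of TGFB2 itself, and differed by 0.14 on the log2 scale (limma with the replicate block, adjusted p = 0.85).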
